A study of Mus musculus with 20 samples.

Results

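mmu-miR-7a-5p, mmu-miR-7b-5p and mmu-miR-375-3p (miR-7a-5p, miR-7b-5p and miR-375-3p hereafter) are miRNAs of endocrine cells, and their reads were followed through the serum of normal and Ames dwarf mice. They were taken by name from a count table of 1915 mature miRNA names, so they are 3 of 1915 names, and 2 of the 3 had a read. The study holds 20 serum samples from female mice, 5 in each of 4 groups. These were normal and dwarf mice at 5 to 6 months (young) and normal and dwarf mice at 21 to 22 months (old). All 4 groups carry the same strain label, Ames dwarf on a heterogeneous genetic background. The labels do not state the allele of the normal mice, and they do not say whether each sample came from a separate mouse, so p-values measure only the spread between these samples.

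Ames dwarf mice lack growth hormone, prolactin and thyroid-stimulating hormone. miR-7 and miR-375 are both enriched in pituitary cells and pancreatic islets. The 5p strand of miR-7 is the strand known to be loaded as the guide, and in mice miR-7a restrains insulin secretion. miR-375-3p is the guide strand of its hairpin, restrains insulin exocytosis in beta cells, and is also made by endocrine cells and epithelium of the gut. A level in serum does not show which cells released a miRNA. Fewer releasing cells and less miRNA released per cell cannot be told apart.

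The miR-7 sequences are shown because the 2 strands of these hairpins differed in the reads they held. In the mature sequences the seed, bases 2 to 8, is in capitals. They come from RefSeq on GRCm38.p6, the build family the submitters name.
miR-7a-5p: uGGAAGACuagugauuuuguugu
miR-7b-5p: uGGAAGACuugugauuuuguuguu
miR-7a-1-3p: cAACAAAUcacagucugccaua
miR-7a-2-3p: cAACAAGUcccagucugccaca
miR-7b-3p: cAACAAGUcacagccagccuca
miR-375-5p: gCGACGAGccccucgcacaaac
miR-7a-5p and miR-7b-5p share their seed and differ by A10U, counted from 1 at the 5′ end with the base of miR-7a-5p first, and miR-7b-5p is 24 bases long against 23. The 3p strand of the second miR-7a hairpin differs from that of the first by A7G, A10C and U21C. The 5p strand is thus common to the miR-7a hairpins, while each 3p strand names its own hairpin. The hairpins Mir7-1 and Mir7-2, with both strands in capitals, show this.
Mir7-1: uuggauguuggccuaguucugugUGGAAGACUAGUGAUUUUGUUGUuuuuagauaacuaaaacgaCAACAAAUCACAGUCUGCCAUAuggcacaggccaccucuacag
Mir7-2: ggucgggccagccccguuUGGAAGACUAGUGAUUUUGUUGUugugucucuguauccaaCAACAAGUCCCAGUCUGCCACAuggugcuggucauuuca

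Mir7-1 lies at chr13:58392779-58392886 on the minus strand, in an intron of Hnrnpk, an RNA-binding protein gene read from the same strand (GENCODE M21, GRCm38). Mir7-2 lies at chr7:78888277-78888373 on the plus strand, between genes, 7481 bp from Aen. Mir7b lies at chr17:56242988-56243098 on the plus strand, between genes, 13712 bp from Fem1a. Mir375 lies at chr1:74900658-74900721 on the minus strand, between genes, 1350 bp from Cfap65.

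Libraries held 1343137 to 4710263 miRNA counts with 1 row per name. Levels are CPM, the read counts scaled to libraries of one common size with TMM factors, and fold changes come from the quasi-likelihood test of edgeR over 360 tested miRNAs in all 20 libraries. Of the 3 members only miR-375-3p passed the filter on low counts. A miRNA is called changed at an adjusted p under 0.05 (Benjamini-Hochberg over the 360). The comparisons share groups, since each group enters 2 pairwise comparisons. As a red-cell index, log2 miR-451a over miR-23a-3p averaged 4.30 ± 0.70 for old normal serum, against 5.45 ± 0.61 for young normal, 5.38 ± 0.44 for old dwarf and 5.40 ± 0.43 for young dwarf serum (SD, n = 5).

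The guide strands of miR-7 were almost absent from these libraries. miR-7b-5p, the form known from the hypothalamus, had 0 of 48692970 reads, and its partner strand miR-7b-3p also had 0. A count of 0 allows up to 3 counts, or 0.0616 CPM by library totals over the pooled libraries and 0.637 to 2.23 CPM in single libraries. miR-7a-5p had 11 reads in 7 of the 20 libraries. Young normal replicates 2, 3 and 4 held 1, 3 and 2 reads, and replicates 1 and 5 held 0. Young dwarf replicates 2, 3 and 4 held 1, 1 and 2 reads, and replicates 1 and 5 held 0. Old normal replicate 5 held 1 read, and the other old normal libraries and all 5 old dwarf libraries held 0. All but 1 of the 7 libraries with a read were thus young, and every group had libraries at 0.

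In CPM, miR-7a-5p stood at 0.381 ± 0.393 in young normal and 0.291 ± 0.317 in young dwarf mice (SD, n = 5). It stood at 0.0687 ± 0.154 in old normal mice and was at 0 in all old dwarf libraries. Old normal minus young normal was -0.312 CPM and old dwarf minus young dwarf was -0.291 CPM (exact permutation tests, 2-sided, p = 0.167 for each, adjusted p = 0.333 over the 4 pairwise comparisons). Dwarf minus normal was -0.0898 CPM in young mice (exact p = 0.698, adjusted p = 0.931) and -0.0687 CPM in old mice (exact p and adjusted p of 1). Old normal replicate 5 was the only old library with a read, so the test between the old groups could give no other p. In dwarf mice only young replicates 2, 3 and 4 held reads, so 0.167 was the smallest exact p possible for old against young. These tests cannot decide whether the groups differ. The highest library stood at 0.924 CPM on 3 reads, and no difference between the groups was detectable at these counts. Since miR-7b-5p had 0 reads, its share of the miR-7 guides was 0 wherever it could be formed, and that share was not compared.

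The partner strands of miR-7a were found where the guides were not. miR-7a-1-3p had 937 reads and was present in all 20 libraries, and miR-7a-2-3p had 92 reads in 19 libraries. miR-7a-5p, which both hairpins can give, made up 1.06% of the 1040 reads of these 3 strands (95% exact Clopper-Pearson interval 0.529 to 1.88%, counting error only). The authors' deposited miRDeep2 report on pooled reads holds both hairpins, with 935 reads on the 3p side and 11 on the 5p side of the chromosome 13 hairpin, and 92 and 11 for the chromosome 7 hairpin. The 11 reads of miR-7a-5p stand in the rows of both hairpins and cannot be assigned to either. miR-375 showed the usual strand, with 45577 reads of miR-375-3p and 11 of miR-375-5p, so the 5p strand took 0.0241% of both (0.0120 to 0.0432%).

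**Figure D1:**
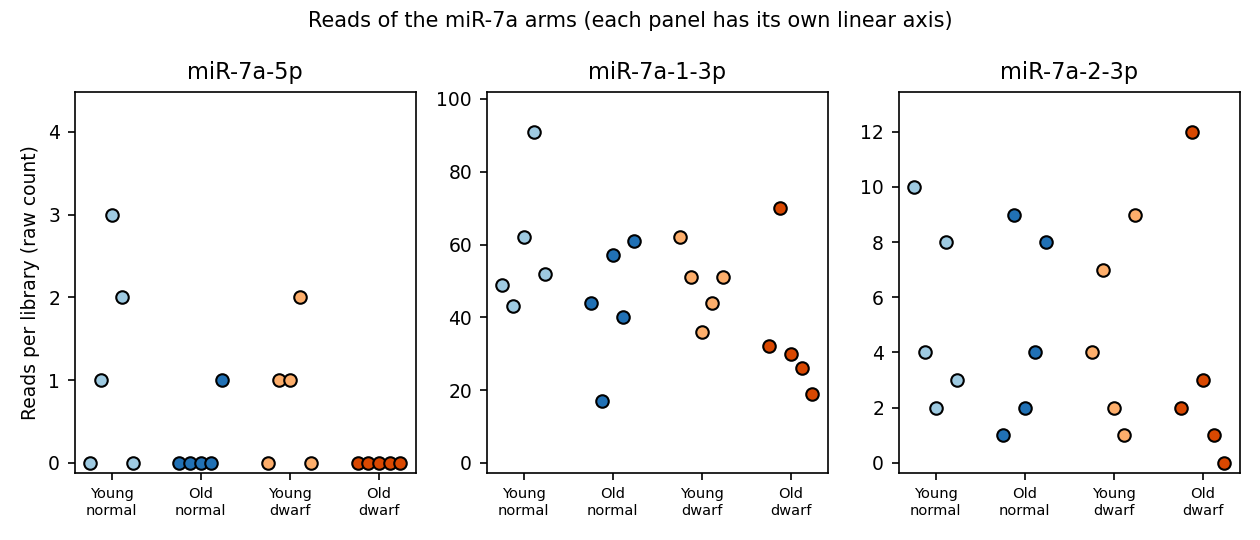
Raw reads per library (y axis, linear, a separate scale in each panel) of miR-7a-5p, miR-7a-1-3p and miR-7a-2-3p in the 4 groups (x axis); each point is 1 library, in order of replicate number. miR-7a-5p never exceeds 3 reads, while miR-7a-1-3p has 17 to 91 reads in every library.

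The first 5 letters of both miR-7 guides, UGGAA, were rare among the miRNAs that had reads and a sequence at hand. A sequence was at hand for 1623 of the 1915 names. UGGAA opened 11 of them, and 5 of these 11 had a read against 998 of all 1623. miR-7a-5p led the 11 with its 11 reads. miR-206-3p, a skeletal muscle miRNA shown here for its opening letters, followed jointly with miR-8107 at 3 reads each, and the 11 names held 19 reads together.
miR-206-3p: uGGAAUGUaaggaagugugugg
Names with other openings can be as low: among the 1623 names with a sequence, 10 openings of 5 letters had at least 11 names. Of these 10 openings, 3 had no such name above 11 reads, UGGAA included. miR-1a-3p, known to share the seed of miR-206 and so its letters GGAA, was not among the 11 names with a sequence at hand. It had 122 reads, so the lead of miR-7a-5p is stated only for those 11 names. miR-133a-3p, which is made from the same transcripts as miR-1a-3p in heart and muscle, had 155005 reads. miR-1a-3p and miR-133a-3p were chosen after their values were seen. The 3′ adapter of the small RNA kit named in the labels is known to begin with the DNA form of UGGAA, and the trimming settings are not given in the sources used here. The part of adapter trimming in the low counts of miR-7a-5p and miR-7b-5p was not tested, so these counts give no upper limit on the miRNAs in the serum itself.

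miR-7a-1-3p, the partner strand from the Hnrnpk intron, held a narrow range, and no difference between groups passed the threshold. Young normal libraries held 23.8, 18.0, 19.1, 25.6 and 18.3 CPM in order of replicate number. Old normal libraries held 22.1, 15.2, 22.7, 21.8 and 20.9 CPM, young dwarf libraries 29.4, 16.4, 13.3, 16.9 and 19.9 CPM, and old dwarf libraries 17.2, 25.1, 16.9, 17.7 and 9.44 CPM. All 4 groups overlapped, and the lowest and highest libraries were both dwarf. The difference of old dwarf from old normal was log2 -0.25 ± 0.27 (SE; edgeR adjusted p = 0.480), and that of young dwarf from young normal was log2 -0.13 ± 0.26 (adjusted p = 0.918). Old against young was log2 -0.02 ± 0.26 in normal and log2 -0.14 ± 0.26 in dwarf mice (adjusted p = 0.970 and 0.997). With library totals in place of TMM factors, the dwarf against normal differences were log2 0.00 in old and 0.07 in young mice, and the old against young differences were log2 -0.45 in normal and -0.52 in dwarf mice (adjusted p = 0.157 and 0.376). With upper-quartile factors old against young normal was log2 0.12. miR-7a-2-3p, from the chromosome 7 hairpin, did not pass the filter and ran from 0 to 8.06 CPM, with 27, 24, 23 and 18 reads in young normal, old normal, young dwarf and old dwarf mice.

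miR-375-3p was abundant, ranked 50th of all names by total reads, and stood highest in old normal serum, but no difference between groups passed the threshold. Young normal libraries held 1374, 196, 426, 866 and 276 CPM, in order of replicate number. Old normal libraries held 2292, 3927, 830 and 2490 CPM in replicates 1 to 4, and 1504 CPM in replicate 5. Of these, 4 of 5 lay above every young normal library. Young dwarf libraries held 1298, 570, 194, 253 and 835 CPM. Old dwarf libraries held 188, 1459, 2295, 257 and 171 CPM, so replicates 2 and 3 lay within the range of old normal serum and replicates 1, 4 and 5 below it. The highest library held 22.9 times the level of the lowest, and both were from old mice.

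**Figure D2:**
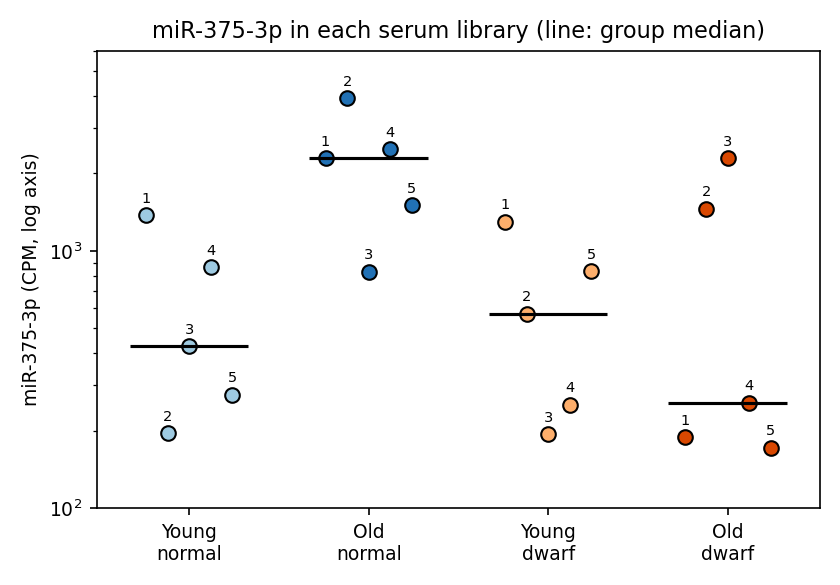
miR-375-3p in CPM (y axis, log scale) in each library of the 4 groups (x axis); points carry the replicate number and lines are group medians. Old normal libraries sit between 830 and 3927 CPM, and old dwarf libraries split into 2 at 1459 and 2295 CPM and 3 between 171 and 257 CPM.

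By mean, the order was old normal (2209 ± 1166 CPM), old dwarf (874 ± 962 CPM), young dwarf (630 ± 454 CPM) and young normal (627 ± 491 CPM; SD, n = 5 each). The means of old normal and old dwarf serum differed by more than either SD, but their libraries overlapped, and no pair of neighbours in this order passed the edgeR test (adjusted p = 0.161, 0.997 and 0.997). By median the order of the other 3 groups was young dwarf at 570, young normal at 426 and old dwarf at 257 CPM, with old normal at 2292 CPM. In log2 CPM the SD within groups was 1.27, the 33rd highest of 360 tested miRNAs, where the median was 0.63. Among the 123 miRNAs with a mean of at least 100 CPM it was the 5th highest.

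With age, miR-375-3p stood higher in old than in young normal serum by log2 1.82 ± 0.74 (edgeR adjusted p = 0.0829, higher in 4 of 5 old libraries than in any young one). In this comparison 56 of 360 miRNAs were changed (15.6%), 18 of them higher (5%) and 38 lower (10.6%). The call depended on the test, with DESeq2 giving log2 1.78 and an adjusted p of 0.0368, edgeR without the filter log2 1.70 (0.0441), and edgeR without young normal replicate 1 log2 2.30 (0.0359). The red-cell index was lower in old normal than in young normal serum by 1.15 (exact permutation p = 0.0238, adjusted p = 0.0476). With that index in the model the difference of miR-375-3p was log2 0.38 (adjusted p = 0.882); index and age moved together, and the part of red-cell content in the result was not tested. In dwarf mice, old against young was log2 0.47 ± 0.72 (adjusted p = 0.997), with 2 of 5 old libraries above and 2 below every young one. Without old dwarf replicate 3 it was log2 -0.29, and with library totals it was log2 -0.13. There 2 of 360 miRNAs were changed (0.556%), miR-34c-3p and miR-592-5p, named after the result.

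Between genotypes, miR-375-3p stood lower in old dwarf than in old normal serum by log2 -1.34 ± 0.73 (edgeR adjusted p = 0.161), with 3 of 5 dwarf libraries below every normal one. In this comparison 95 of 360 miRNAs were changed (26.4%), 58 of them higher (16.1%) and 37 lower (10.3%). Without old dwarf replicate 3 the difference was log2 -2.08 (adjusted p = 0.0389), so this library decided the call. The red-cell index of old dwarf serum exceeded that of old normal serum by 1.08 (exact permutation p = 0.00794, adjusted p = 0.0317). With it in the model the difference of miR-375-3p was log2 -0.17 (edgeR adjusted p = 0.944). Index and genotype moved together in old mice, and the part of red-cell content in the result was not tested. In young mice, dwarf against normal was log2 0.01 ± 0.72 (adjusted p = 0.997), with means of 630 and 627 CPM. There edgeR called 0 of 360 miRNAs (0%), with 28 at a raw p under 0.05, and DESeq2 called 6. The age effect in dwarf minus that in normal mice was log2 -1.34 ± 1.02 (adjusted p = 0.517), where 2 of 360 miRNAs were changed (0.556%), miR-34c-3p and miR-34c-5p. With the red-cell index in the model it was log2 0.04, with the same limit.

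**Figure D3:**
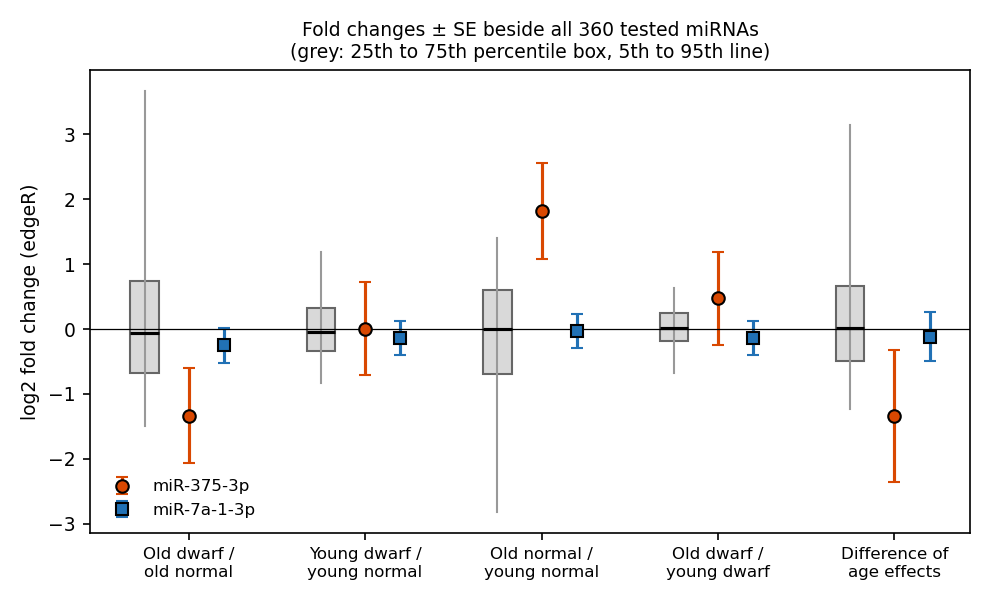
log2 fold changes (y axis) of miR-375-3p and miR-7a-1-3p with SE bars in the 5 comparisons (x axis), beside the spread of all 360 tested miRNAs in grey (box, 25th to 75th percentile; line, 5th to 95th). miR-375-3p lies at log2 1.82 for old against young normal serum and at -1.34 for old dwarf against old normal serum, while miR-7a-1-3p stays between -0.25 and -0.02.

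No ratio of miR-375-3p to a miR-7a strand passed the threshold either. The log2 ratio of miR-375-3p to miR-7a-5p counts, each plus 1, was 11.71 ± 0.59 for old normal serum, against 9.48 ± 1.41 for young normal, 9.89 ± 1.92 for old dwarf and 9.62 ± 1.68 for young dwarf serum (SD, n = 5). Since miR-7a-5p had 0 reads in 13 of the 20 libraries, this ratio there is the unscaled count of miR-375-3p plus 1 and moves with library totals. Old normal exceeded young normal by 2.23 (exact permutation p = 0.0238, adjusted p = 0.0952; without young normal replicate 1 it was 2.73, adjusted p = 0.0317). Old dwarf lay below old normal by -1.82 (exact p = 0.0952, adjusted p = 0.190). Against miR-7a-1-3p, a denominator chosen after the data were seen, the same differences were 2.01 and -1.70 (exact, adjusted p = 0.0635 and 0.159). miR-7a-1-3p had reads in every library, so this ratio is taken within each library.

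The libraries rich in miR-375-3p were also rich in certain other miRNAs. Over the 20 libraries and 261 other miRNAs with a mean of at least 10 CPM, the most similar patterns were those of miR-142a-5p (Spearman rho 0.91), a miRNA of blood cells, miR-1306-5p (0.91) and miR-92a-3p (0.91), a member of the miR-17 to miR-92 cluster. Within groups, Pearson's r of log2 CPM with miR-375-3p was 0.87, 0.90 and 0.90 for these. The pattern was common: 32 of the 261 had a rho above 0.8 and 13 a rho below -0.8. It was not shared by miR-142a-3p, the other strand of miR-142a, with a rho of 0.29. The lowest rho, named after its value was seen, was that of miR-218-5p (-0.91), which ran from 1.51 to 2.38 CPM in old normal serum and from 1.13 to 31.2 CPM in old dwarf serum. These values share libraries and scaling factors and are a description.

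**Figure D4:**
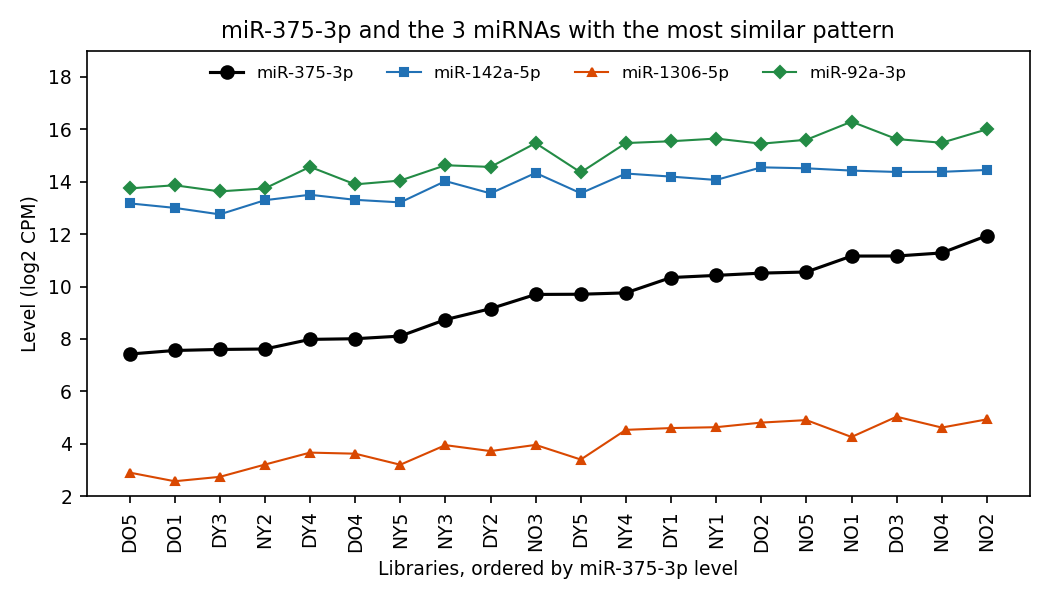
Levels in log2 CPM (y axis) of miR-375-3p and the 3 most similar miRNAs in the 20 libraries (x axis), ordered by miR-375-3p (NY, NO, DY and DO are young normal, old normal, young dwarf and old dwarf, with the replicate number). All 4 miRNAs are lower in old dwarf replicate 5 at the left end than in old normal replicate 2 at the right end, with miR-92a-3p at 13721 and 65564 CPM.

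Measures of sample make-up also moved with miR-375-3p. Its rho was -0.70 with the red-cell index (within groups r = -0.52), -0.78 with miR-451a, 0.65 with the summed red-cell list, 0.83 with the summed platelet and myeloid list and 0.06 with the summed gut and liver list. The red-cell list, which also holds miR-92a-3p, thus ran opposite to its member miR-451a. Members of the gut and liver list also ran apart, with a rho of 0.68 for miR-215-5p (within groups r = 0.88). From the same list, miR-802-5p, miR-122-5p and miR-194-5p had a rho of -0.07, -0.44 and -0.52. A sum is weighted to its abundant members, so the rho of a summed list does not stand for each name on it. The muscle miRNA miR-133a-3p had a rho of -0.64, total count 0.35 and miR-7a-1-3p 0.46. The part of these in the levels of miR-375-3p was not tested.

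As with miR-375-3p, no tested miRNA on a list for islets and pituitary passed the edgeR test. Of 18 such names, which include the miR-200 family and the miR-183 cluster, 5 of them also on the epithelial list, 15 were tested and edgeR called 0 in each of the 5 comparisons. Between the old groups it called 26.4% of all 360. There 3 of the 15 had a raw p under 0.05 (45.3% of all) and 3 were called by DESeq2 (37.8% of all), and the median was log2 -0.21 against -0.06 for all 360. In old against young normal serum, where edgeR called 15.6% of all, 3 had a raw p under 0.05 (38.3% of all), DESeq2 called 1 (32.5% of all), and the median was log2 0.37 against 0.00. In young dwarf against young normal serum 0 had a raw p under 0.05 or were called by DESeq2, and in old against young dwarf serum and in the difference of age effects 1 and 0 had such a p and DESeq2 called 0. miR-26a-5p, a widespread miRNA active in islets, stood at log2 0.93 ± 0.35 in old dwarf against old normal serum (adjusted p = 0.0552). Beta-cell miR-204-5p was at log2 1.15 ± 0.46 (0.0659) and miR-200b-3p at log2 -1.48 ± 0.71 (0.108). The summed list ran from 11479 to 16262 CPM in old normal libraries and from 10420 to 12608 CPM in old dwarf libraries. Young normal and young dwarf libraries lay at 10921 to 12481 and 11031 to 12895 CPM, so all 4 ranges overlapped. The sum is weighted to its abundant members, and its range does not stand for each name on the list. Group means were 734 to 1399 CPM for miR-26a-5p and 2.52 to 6.65 CPM for miR-204-5p.

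Markers of exocrine pancreas were near 0, with 0 of 5 names tested and sums of 0.419 to 3.77 CPM in every library. Of 13 neural names 3 were tested, and 1 passed in each of the comparisons old dwarf against old normal (26.4% of all 360 called) and old against young normal (15.6%). Neural miR-218-5p fell with age in normal mice (log2 -3.05 ± 0.84, edgeR adjusted p = 0.0190) and was higher in dwarf than in normal serum of old mice (log2 3.21 ± 0.85, adjusted p = 0.0113), while the medians of the 3 were 0.41 and -0.59. Its old normal libraries lay at 1.51 to 2.38 CPM, near the 3-count limit of 0.637 to 2.23 CPM in single libraries. Old dwarf replicates 2 and 3 were also low, at 2.87 and 1.13 CPM, while replicates 1, 4 and 5 held 27.8 to 31.2 CPM. Nearly all of the neural sum was miR-128-3p, whose rho with miR-375-3p was 0.87, while that of miR-218-5p was -0.91. Brain-enriched miR-124-3p and miR-9-5p had 8 and 43 reads in all libraries. Of 7 epithelial names, all tested, only miR-205-5p passed in edgeR, lower in old dwarf than in old normal serum (log2 -1.20 ± 0.39, adjusted p = 0.0299), 1 of 7 against 10.3% of all 360 called lower and 26.4% called either way. There 2 of the 7 had a raw p under 0.05 and DESeq2 called 2 (45.3% and 37.8% of all 360). DESeq2 also called 1 of the 7 in young dwarf against young normal serum and 1 in old against young normal serum (1.67% and 32.5% of all 360). In young dwarf against young normal serum miR-205-5p stood at log2 -1.48 ± 0.39 (edgeR adjusted p = 0.183). With the red-cell index in the model this young difference was log2 -1.54 ± 0.31 and passed (edgeR adjusted p = 0.0308). Of 6 platelet and myeloid names only miR-191-5p passed, lower in old dwarf than in old normal serum by log2 -1.10 ± 0.37 (adjusted p = 0.0337) and higher in old than in young normal serum by log2 1.10 ± 0.37 (adjusted p = 0.0465), 1 of 6 against 26.4% and 15.6% of all 360. Of 6 red-cell names miR-451a fell with age in normal mice (log2 -0.99 ± 0.28, adjusted p = 0.0198), 1 of 6 against 15.6% of all 360. With age in normal mice 3 of the 6 had a raw p under 0.05 and DESeq2 called 3 (38.3% and 32.5% of all 360). miR-451a stood at log2 0.73 ± 0.28 in old dwarf against old normal serum (adjusted p = 0.0550). There edgeR called 0 of the 6, with 5 at a raw p under 0.05 and 4 called by DESeq2 (45.3% and 37.8% of all 360). The red-cell list did not move one way: miR-92a-3p stood at log2 0.91 ± 0.44 with age in normal mice and -1.04 ± 0.44 in old dwarf against old normal serum (adjusted p = 0.130 and 0.0758), and 2 of the 6 stood higher and 4 lower in the first, 4 higher and 2 lower in the second. Of 6 gut and liver names miR-215-5p rose with age in normal mice (log2 1.44 ± 0.48, adjusted p = 0.0475; 1 of 6 against 15.6% of all 360), chosen after its values were seen, and miR-122-5p stood at log2 2.74 ± 1.24 in old dwarf against old normal serum (adjusted p = 0.0950). There edgeR called 0 of these 6, with 3 at a raw p under 0.05 and 3 called by DESeq2 (45.3% and 37.8% of all 360). In young dwarf against young normal serum edgeR called 0 of them while 5 had a raw p under 0.05 and DESeq2 called 3 (7.78% and 1.67% of all 360), and all 6 stood higher, with a median of log2 1.47 against -0.04 for all 360. With the red-cell index in the model none of the edgeR calls made without it in this paragraph passed. miR-218-5p stood at log2 2.20 between the old groups and -2.09 with age in normal mice (edgeR adjusted p = 0.289 and 0.405). Between the old groups miR-205-5p stood at log2 -0.34 (0.696). miR-191-5p stood at log2 -0.55 between the old groups and 0.48 with age in normal mice (0.465 and 0.589). With age in normal mice miR-215-5p stood at log2 0.36 (0.818), while miR-451a is itself part of the index. The index differed between the groups of both comparisons, and its part in these values was not tested. In old dwarf against old normal serum the medians were log2 0.76 for gut and liver, 0.53 for red cells, -0.46 for platelets and myeloid cells and -1.04 for epithelium, and in old against young normal serum they were 0.46, -0.52, 0.35 and -0.32. The epithelial list did not move one way either: 3 of its 7 names stood higher and 4 lower in each of these comparisons. The platelet and myeloid sum, the one of these that moved most with miR-375-3p, ran from 64947 to 85514 CPM in old normal libraries, 27513 to 70102 CPM in old dwarf, 27993 to 59746 CPM in young normal and 30401 to 55157 CPM in young dwarf libraries.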

How the data were processed

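Serum RNA, purified on columns, was made into TruSeq small RNA libraries, per the labels' protocols. The submitters' processing notes list Bowtie 0.12.8, bedtools, edgeR and GRCm38 (mm10) but give them no role; the miRNA annotation release and the trimming and mismatch settings are not given in the sources used here. The deposited table holds whole-number read counts per mature miRNA and precursor, per the file headers. Its RPM columns, made by the authors, match count over column sum to within 0.005 and entered no test. A pooled miRDeep2 report was used for hairpins; its read counts are the authors' own. All sample columns were used (0 left out).

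For each of 1915 names (2241 rows) the row with the highest total was kept. edgeR 4.0.16 (limma 3.58.1, R 4.3.3) fitted all 20 libraries with a coefficient per group, TMM factors (CPM uses TMM-scaled totals) and its default filter by group (360 names, at least 99.9% of reads per library; common biological variation 47.5%). SE is the log2 difference divided by the root of the F statistic. The code was tested on simulated data. Low members and ratios were compared with exact permutation tests of 5 against 5. Sequences are from RefSeq (GRCm38.p6) and positions from GENCODE M21. Members, marker lists, tests and alternatives were chosen with earlier results of these data known. Besides the members, named miRNAs are their other strands, the 3 most similar patterns, up to 3 per marker list by p between the old groups, and red-cell and liver references. Others named (list members called or near 0, miRNAs with the UGGAA opening, muscle miRNAs) were chosen after their values were seen. Intervals and limits cover counting error only. Alternatives were other scalings, no filter, DESeq2 1.42.0, summed rows, a replicate block, a red-cell covariate, only the groups compared, and each library left out.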

Additional observations from a re-analysis of the deposited data

Results flagged for a closer look

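Old normal replicate 2 stood apart in miR-7a-1-3p, at 15.2 CPM against 20.9 to 22.7 CPM in the other 4 old normal libraries, with a gap of 0.769 of the group's range (Dixon's 95% limit 0.71). It rests on 17 reads, and the same library had the highest miR-375-3p level. It was the only one of 20 groups of values tested this way, where chance flags about 1 in 20. Without it, old against young normal serum was log2 0.05 for miR-7a-1-3p.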

How the results depend on the processing

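For miR-375-3p, old dwarf against old normal kept its sign in all alternatives (log2 -1.42 to -0.17; leaving out 1 library, -2.08 to -1.02). Old against young normal ran from log2 0.38 to 1.96 (1 library out, 1.49 to 2.30) and passed with DESeq2 (1.78) and with no filter (1.70). Young dwarf against young normal lay near 0 and turned with upper-quartile factors (log2 -0.0066), no filter (-0.0055) and the red-cell index (-0.21; 1 library out, -0.44 to 0.51). Old against young dwarf turned with library totals (-0.13; 1 library out, -0.29 to 0.92), and the difference of age effects with the red-cell index (0.039). miR-7a-1-3p turned with library totals for dwarf against normal (0.0011 old, 0.072 young) and with upper-quartile factors for old against young normal (0.12; with library totals -0.45; 1 library out, -0.088 to 0.067); with 1 library out, old against young dwarf ran from -0.33 to 0.063 and the difference of age effects from -0.30 to 0.092. Library totals shifted the median over all tested names to log2 0.23, 0.18, -0.42 and -0.38 for old dwarf against old normal, young dwarf against young normal, old against young normal and old against young dwarf, and upper-quartile factors moved the third of these to 0.16. The cause of these turns was not tested.

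miR-7a-5p turned in young dwarf minus young normal with library totals (0.000736 CPM; 1 library out, -0.208 to 0.0459). It could be fitted in edgeR only with no filter (log2 -2.80 to -0.38, adjusted p 0.420 to 1). The ratio of miR-375-3p to miR-7a-5p ran, with 1 library out, from -0.31 to 0.64 between genotypes in young mice, from 1.83 to 2.73 with age in normal mice and from -0.26 to 0.72 with age in dwarf mice; with miR-7a-1-3p as denominator the first and last were -0.087 to 0.52 and -0.43 to 0.48.

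Calls in old dwarf against old normal serum, 95, were 63 with only the groups compared and 0 with the red-cell index (51 without old dwarf replicate 5, 143 without replicate 2). In young mice the 0 calls became 1 with no filter, 6 with DESeq2 and 1, miR-205-5p, with the index. The 56 calls with age in normal mice became 106 with library totals, 117 with DESeq2, 1 with the index and 34 with only the groups compared (29 without young normal replicate 5, 123 without replicate 1). The 2 calls with age in dwarf mice became 0 with library totals or only the groups compared and 1 with summed rows (1 library out, 0 to 2). The 2 in the difference of age effects became 1 with RLE factors, 0 with upper-quartile factors, library totals, summed rows or the index, 13 with no filter and 20 with DESeq2 (1 library out, 0 to 3).

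The replicate number as a block gave log2 -1.41, 0.06, 1.86, 0.39 and -1.47 for miR-375-3p in those 4 comparisons, in that order, and in the difference of age effects, none past the threshold, and 92, 0, 38, 0 and 0 calls. The labels do not say that equal numbers share anything. Deviations of same-numbered libraries correlated between -0.66 and 0.79, over 0.1 in 13 of 30 pairs. Those of libraries with other numbers correlated between -0.75 and 0.84, over 0.1 in 51 of 120 pairs. Ranges this wide cannot decide whether the numbers pair the samples. At counts of 0 to 3 per library, differences in miR-7a-5p are not detectable at this depth.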
